A study of Mus musculus with 6 samples.

Results

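The Arp2/3 complex subunits are encoded in mouse by 10 genes, Actr2, Actr3, Actr3b, Arpc1a, Arpc1b, Arpc2, Arpc3, Arpc4, Arpc5 and Arpc5l. They were taken by symbol, and all 10 were present among the 17794 genes of the table. RNA came from the medial ganglionic eminence (MGE), the ventral forebrain zone where many cortical interneurons are born, of mouse embryos at E13.5. There were 3 control and 3 double-mutant (dmut) libraries, each from MGEs pooled over 3 embryos. Controls were Rac1+/+;Rac3+/+ and dmut embryos were Rac1fl/fl;Rac3-/-. Both groups carried the Nkx2.1Tg(Cre) transgene and the R26R-YFP+/- reporter. The labels write the reporter R26RYFP+/- for control. The Rac3-/- genotype holds for all cells of the dmut embryos, while floxed Rac1 could be removed only in cells with a history of Cre under Nkx2.1, and pooled MGE tissue can hold other cells.

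The Arp2/3 complex starts a new actin filament as a branch on the side of an existing filament. Arp2 (Actr2) and Arp3 (Actr3 or its paralog Actr3b) form the first units of the branch. ARPC2 and ARPC4 are the core that holds them and contacts the mother filament, ARPC3 links Arp3 to that filament, and ARPC1 and ARPC5, each with a pair of paralogs, hold the Arp2 side. Active Rac turns on the WAVE complex, which activates Arp2/3 at the leading edge of moving cells and growth cones. The comparison addresses whether the RNA of the subunits differed in MGE of embryos without Rac3 and with Rac1 deleted in the Nkx2.1 lineage. RNA levels do not measure the complex or its activity.

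The smallest library held 26766556 total gene reads and the largest 34612095, and libraries of a group differed by more than sampling noise. Nothing says that pools came from separate litters, so p-values measure the spread between these pools. Rac3 had 728, 647 and 532 reads in control replicates 1, 2 and 3, 16 in dmut replicate 1 and a listed 0 in the other dmut libraries. Rac1 had 9043 to 10228 reads in control and 6101 to 7442 in dmut, from libraries of unequal size. It stood at 274, 273 and 269 CPM in control replicates 1, 2 and 3 and at 221, 273 and 251 CPM in dmut. By CPM the Rac1 groups overlapped, and the log2 fold was -0.13 ± 0.10 (SE; edgeR adjusted p = 0.525). No counts over the floxed part alone were used here. All 8 MGE and GABAergic markers examined (Nkx2-1, Lhx6, Lhx8, Dlx1, Dlx2, Dlx5, Gad1 and Gad2) were detected in every library, at a summed 1390 to 1644 CPM in control and 1407 to 1834 CPM in dmut. They differed in sign, with log2 folds of -0.75 for Gad1, 0.64 for Dlx1 and 0.40 for Dlx2. These 3 were called by DESeq2 (adjusted p = 0.00185, 0.0260 and 0.0453), against 10.6% of genes with an adjusted p in either direction. None of the 8 was called by edgeR, against 0.482% of all tested genes. By edgeR 4 had an unadjusted p under 0.05, against 21.3% of all tested genes. CPM is each count scaled to its library size after TMM scaling, which aligns the libraries on the bulk of their genes.

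No subunit passed the test across all genes, and the folds of the 10 differed in sign and size. Arpc3 and Arpc2 had the highest folds, 1.67-fold and 1.40-fold higher in dmut, at adjusted p of 0.0768 and 0.0806 (edgeR quasi-likelihood test, Benjamini-Hochberg adjusted over 15960 genes, n = 3 against 3). The actin-related subunits Actr2 and Actr3 stood near their control level, and Actr3b was lowest at 0.718-fold. By the same test 0 of the 10 were called, against 0.482% of all tested genes, and 4 (Arpc1a, Arpc2, Arpc3 and Arpc4) were higher at an unadjusted p under 0.05, against 11.1% of all tested genes. DESeq2 called those 4 higher, against 5.93% of genes with an adjusted p, and limma-voom called 0.

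The 4 promoter windows below are those of the subunits with the highest folds, Arpc3 and Arpc2, and of the actin-related pair, Actr2 and Actr3, whose folds were near 0. Each runs from 250 bases before to 50 after the annotated start (RefSeq, GRCm38.p6), 5′ to 3′ on the strand of the gene. Capitals mark matches to any of 6 motifs, searched on both strands. The GC box, bound by Sp1-family factors, was searched as GGGCGG. The box known by its letters as CCAAT is bound by the factor NF-Y in many promoters. A site of ETS-family factors was searched as CCGGAAG alone, called the ETS core here, and other forms of that site were not counted. The TATA box, bound by the TATA-binding protein, was searched as TATAAA. The E box, a site of basic helix-loop-helix factors, was searched as CACGTG. The CArG box is the site of serum response factor, whose targets include many actin genes.
Arpc3, chr5:122391628-122391927, plus strand: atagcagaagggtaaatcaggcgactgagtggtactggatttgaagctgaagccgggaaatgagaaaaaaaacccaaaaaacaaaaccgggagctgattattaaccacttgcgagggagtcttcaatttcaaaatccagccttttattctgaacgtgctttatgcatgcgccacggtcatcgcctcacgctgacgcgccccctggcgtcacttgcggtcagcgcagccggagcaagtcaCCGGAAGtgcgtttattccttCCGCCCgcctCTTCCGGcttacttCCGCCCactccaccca
Arpc2, chr1:74236267-74236566, plus strand: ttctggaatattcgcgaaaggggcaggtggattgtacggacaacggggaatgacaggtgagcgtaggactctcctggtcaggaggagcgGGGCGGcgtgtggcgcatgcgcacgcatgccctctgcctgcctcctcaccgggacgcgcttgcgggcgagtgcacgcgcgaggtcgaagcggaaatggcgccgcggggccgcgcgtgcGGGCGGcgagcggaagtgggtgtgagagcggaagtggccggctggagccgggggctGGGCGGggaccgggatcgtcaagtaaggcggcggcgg
Actr2, chr11:20112902-20113201, minus strand: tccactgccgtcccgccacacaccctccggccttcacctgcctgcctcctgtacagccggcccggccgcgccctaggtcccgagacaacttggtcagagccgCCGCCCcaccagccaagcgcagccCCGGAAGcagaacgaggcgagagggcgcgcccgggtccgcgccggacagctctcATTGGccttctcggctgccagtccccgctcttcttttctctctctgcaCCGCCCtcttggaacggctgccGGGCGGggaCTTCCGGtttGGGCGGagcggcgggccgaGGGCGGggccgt
Actr3, chr1:125435678-125435977, minus strand: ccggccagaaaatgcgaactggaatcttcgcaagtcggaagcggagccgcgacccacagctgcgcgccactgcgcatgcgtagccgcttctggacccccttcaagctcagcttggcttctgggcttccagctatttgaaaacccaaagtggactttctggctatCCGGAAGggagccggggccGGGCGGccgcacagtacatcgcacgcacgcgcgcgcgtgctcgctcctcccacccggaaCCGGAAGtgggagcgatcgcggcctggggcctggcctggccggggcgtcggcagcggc

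Of the 10 subunits, 8 had a window in the RefSeq table. The exceptions were Actr3b and Arpc5l. All 8 lacked the TATA box, which 13.6% of all 32851 windows of 300 bases held. A GC box was present in 6 of the 8 (35.7% of all windows) and an ETS core in 5 of the 8 (8.86%), among them Arpc3, Actr2 and Actr3 but not Arpc2. A CArG box was found in 1, Arpc4 (1.63% of all windows), an E box in 1, Arpc5 (7.15%), and a CCAAT box in Actr2 and Arpc5 (37.4%). CpG pairs numbered 21 in Arpc3, 40 in Arpc2, 33 in Actr2 and 34 in Actr3, against a median of 7 over all windows. No match of a motif overlapped a match of another motif. Among these motifs, in the letters searched, the windows of Arpc3 and Arpc2 had the GC box alone in common. A match is a description of letters in the window.

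Among the subunits of the core, Arpc2 (chromosome 1, 74236084 to 74268209 in GRCm38, plus strand) stood at 129, 127 and 138 CPM in control replicates 1, 2 and 3 and at 202, 162 and 189 CPM in dmut. Every dmut library lay above every control library. The log2 fold was 0.49 ± 0.11 (SE), with group means of 131 ± 5.56 and 184 ± 20.2 CPM (SD, n = 3 each). Arpc4 (chromosome 6, 113378115 to 113390448, plus strand) stood at 108, 90.7 and 104 CPM in control and at 117, 129 and 120 CPM in dmut. Its groups did not overlap either, but its log2 fold was smaller, at 0.27 ± 0.10 (SE; edgeR adjusted p = 0.170). Arpc4 shares 1189 bases of its gene with Ttll3 on the same strand, and 71.0% to 78.1% of its reads were unique to 1 place, so its level is less certain than that of Arpc2, where the lowest share was 99.6%. From unique reads alone the Arpc4 fold was 0.34 (edgeR adjusted p = 0.132).

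Arpc3 (chromosome 5, 122391878 to 122414184, plus strand), the bridge from Arp3 to the mother filament, had 63.3, 64.9 and 83.1 CPM in control and 121, 98.9 and 133 CPM in dmut. The lowest dmut library stood above the highest control library, which was replicate 3 of its group. Its log2 fold of 0.74 ± 0.15 (SE) was the largest of the 10. The group means were 70.4 ± 11.0 and 118 ± 17.5 CPM (SD, n = 3 each). At least 99.9% of Arpc3 reads were unique in every library. By edgeR, Arpc3 was called when every library had to hold 10 reads or more of a gene (adjusted p = 0.0417) and without dmut replicate 2 (0.0424), where Arpc2 was also called (0.0400). In those settings 2.84% and 3.54% of all tested genes were called. DESeq2 gave adjusted p of 0.000493 for Arpc3 and 0.000619 for Arpc2. Over 19 alternative settings the adjusted p ran from 0.000493 to 0.364 for Arpc3 and from 0.000619 to 0.364 for Arpc2, and both folds were positive in all 19.

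The titles carry dates, shared by some control and dmut libraries. On 29 March, control replicate 2 had 64.9 CPM of Arpc3 and dmut replicates 1 and 2 had 121 and 98.9. On 4 May, control replicate 3 had 83.1 CPM and dmut replicate 3 had 133. The values of the same libraries were, in that order, for Arpc2 (127 against 202 and 162, then 138 against 189 CPM), for Arpc1a (103 against 148 and 128, then 124 against 147 CPM) and for Arpc4 (90.7 against 117 and 129, then 104 against 120 CPM). Since the groups of these subunits did not overlap, this order within dates follows from it and adds nothing to it. Control replicate 1 was alone on 23 March. With the date as a block the edgeR adjusted p of Arpc3 and of Arpc2 was 0.364.

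With TMM scaling Actr2 and Actr3 had folds nearer 0 than Arpc2 and Arpc4. With library size alone Actr2, Actr3 and Arpc4 stood at -0.30, -0.10 and 0.07, where the median of all genes was -0.23. Relative to that median they stood at -0.07, 0.12 and 0.30. With TMM scaling the values relative to the median of all genes were -0.08, 0.13 and 0.30, so the contrast was little changed. Actr2 (chromosome 11, 20062304 to 20112913, minus strand) stood at 162, 189 and 198 CPM in control and at 135, 192 and 186 CPM in dmut. The groups overlapped, and dmut replicate 1 alone lay below all control libraries. The log2 fold was -0.10 ± 0.15 (SE; edgeR adjusted p = 0.772), and 0.04 without dmut replicate 1. Actr3 (chromosome 1, 125392905 to 125435727, minus strand), the most abundant subunit in control by RPKM, stood at 262, 268 and 252 CPM in control and at 269, 314 and 257 CPM in dmut. The groups overlapped, with dmut replicate 2 highest. Its log2 fold was 0.11 ± 0.11 (SE; edgeR adjusted p = 0.635), and it was -0.10 with library size alone and -0.08 on log2(RPKM + 1). Between 83.2% and 89.4% of Actr3 reads were unique. Its pseudogene copy on the X chromosome, listed as Gm8822, had 15 to 36 reads per library.

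Actr3b (chromosome 5, 25759997 to 25850688, plus strand), the paralog of Arp3, was sparse at 69 to 177 reads per library. It stood at 4.85, 4.65 and 4.79 CPM in control and at 2.50, 3.34 and 4.43 CPM in dmut. All dmut libraries were below all control libraries, but they ranged widely and replicate 3 lay just under control. The log2 fold was -0.48 ± 0.25 (SE; edgeR adjusted p = 0.322), -0.30 without dmut replicate 1 and -0.71 without dmut replicate 3. By deposited RPKM the groups overlapped: 2.33, 2.48 and 2.18 in control and 1.08, 1.44 and 2.33 in dmut. RPKM by its usual definition divides exon reads by exon length and depth, and the labels leave out the formula used.

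The ARPC1 subunits are WD-repeat proteins, and Arpc1a and Arpc1b lie next to each other on chromosome 5 (145083830 to 145108761 and 145114215 to 145130705, both on the plus strand), 5453 bases apart. Arpc1a stood at 107, 103 and 124 CPM in control and at 148, 128 and 147 CPM in dmut. The groups did not overlap, and the log2 fold was 0.34 ± 0.11 (SE; edgeR adjusted p = 0.133). Arpc1b, the paralog prominent in blood cells, stood at 17.2, 12.5 and 17.8 CPM in control and at 24.8, 17.5 and 18.7 CPM in dmut. The groups overlapped, since dmut replicate 2 lay below control replicate 3. The log2 fold was 0.36 ± 0.19 (SE; edgeR adjusted p = 0.336), and 0.19 without dmut replicate 1. Arpc1b overlaps Pdap1, on the opposite strand, over 1937 bases. Pdap1 had a log2 fold of 0.44 (edgeR adjusted p = 0.143), and its part in the Arpc1b value was not tested. Of the Arpc1b reads, 72.4% to 81.0% were unique.

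Markers of blood-derived and other cell types varied between libraries as well. All 14 markers of microglia and macrophages were detected in every library, none at 0, and summed to 96.5 to 119 CPM in control and 121 to 155 CPM in dmut. Of the 14, 13 had a positive log2 fold, 0 were called by edgeR and 3 had an unadjusted p under 0.05, against 21.3% of all tested genes. DESeq2 called the same 3, C1qa (adjusted p = 0.00747), C1qc (0.0411) and Tyrobp (0.0395), against 10.6% of genes in either direction. Erythroid markers, all 8 detected in every library, summed to 10994 to 18708 CPM in control and 9198 to 32046 CPM in dmut. The sum was highest in dmut replicate 1, where Arpc1a, Arpc1b, Arpc2 and Arpc5l were also highest. In that library Actr2 (135 CPM) and Actr3b (2.50 CPM) were the lowest of all libraries. Arpc4 and Arpc5 were the lowest of dmut there, and Actr3 and Arpc3 lay between other libraries. Vascular markers, 14 of 14 detected, summed to 252 to 272 CPM in control and 247 to 301 in dmut, and cortical excitatory markers, 7 of 7 detected with Neurog2 at 0 in at least 1 library, to 16.8 to 49.2 and 8.09 to 82.2 CPM. The part of these cells in the subunit values was not tested. In such bulk samples, fewer cells of a type and less RNA per cell cannot be told apart.

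The ARPC5 subunits tie ARPC1 and Arp2 to the core. Arpc5 (chromosome 1, 152766542 to 152775597, plus strand) stood at 145, 133 and 137 CPM in control and at 143, 170 and 159 CPM in dmut. Control replicate 1 lay above dmut replicate 1, so the groups overlapped. The log2 fold was 0.18 ± 0.10 (SE; edgeR adjusted p = 0.334), and -0.02 with library size alone. Arpc5l (chromosome 2, 39005348 to 39015877, plus strand) stood at 31.9, 25.4 and 27.5 CPM in control and at 33.3, 32.1 and 28.8 CPM in dmut. These groups also overlapped, and the log2 fold was 0.15 ± 0.12 (SE; edgeR adjusted p = 0.540). Arpc5l overlaps Rpl35 on the opposite strand over 277 bases and Wdr38 on its own strand over 821 bases. Rpl35, a ribosomal protein gene, had a mean of 181 ± 10.7 CPM over the controls against 396 ± 197 CPM over the dmut libraries (SD, n = 3), and its part in the Arpc5l value was not tested. Whether the counting used strand is not given in the sources used here.

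**Figure D1:**
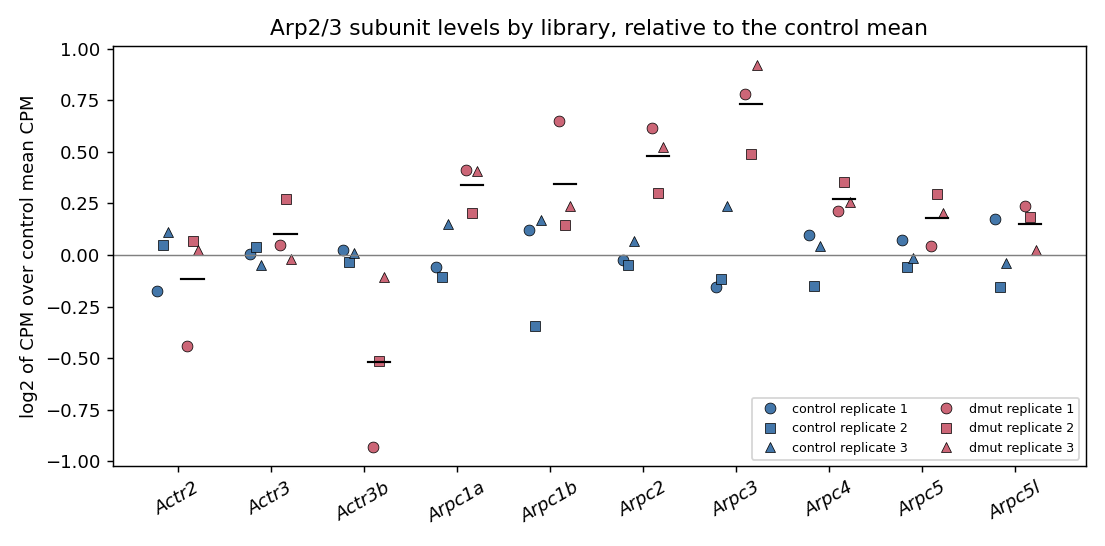
Log2 of CPM over the control mean CPM (vertical axis) for the 10 subunits, with a point for each of the 3 control (blue) and 3 dmut (red) libraries and a black line at the mean of the dmut points. Arpc1a, Arpc2, Arpc3 and Arpc4 have all dmut points above all control points, and Actr3b has them below.

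Over all tested genes, the groups failed to overlap with dmut higher in 13.6%, and with dmut lower in 14.9%. Among the 10 subunits these counts were 4 (Arpc1a, Arpc2, Arpc3 and Arpc4) and 1 (Actr3b). By RPKM, dmut lay above control without overlap for Arpc2 and Arpc3, against 4.9% of all tested genes. The median log2 fold of the 10 was 0.23, against -0.02 over all tested genes, and 8 of the 10 were positive, against 47.3% of all tested genes. Relative to the control means, the median of the 10 was 0.22, 0.24 and 0.22 in dmut replicates 1, 2 and 3, and 0.02, -0.08 and 0.06 in control replicates 1, 2 and 3. The median subunit was alike in the dmut libraries, while single subunits differed between them. In dmut replicate 2 the offsets of Arpc2 and Arpc3 were 0.30 and 0.49, the lowest of the 3 dmut libraries, while those of Actr3, Arpc4 and Arpc5 were 0.27, 0.35 and 0.30, the highest.

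The smaller folds depended on the scale. Scaling by library size alone moved the median of all genes by -0.20, and log2(RPKM + 0.1) moved it by -0.16. The median of the 10 was then 0.027 and 0.050. Relative to the median of all genes on each scale it stood at 0.25 and 0.23, against 0.25 with TMM scaling, and at 0.15 on log2(RPKM + 1). Arpc3 kept folds of 0.55 and 0.55 on these scales and Arpc2 of 0.29 and 0.32, without passing the test (adjusted p of 0.0828 and 0.154 by edgeR with library size alone, 0.129 and 0.161 by limma on RPKM), and Arpc1a and Arpc4 stayed positive at 0.07 to 0.18. Actr3 and Arpc5 were below 0 on both scales, and Arpc5l was -0.06 with library size alone. Actr2 was at -0.30 and -0.31 and Actr3b at -0.67 and -0.57. Arpc3 and Arpc2 had the highest folds and Actr2 and Actr3b the lowest on these scales, as with TMM scaling.

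**Figure D2:**
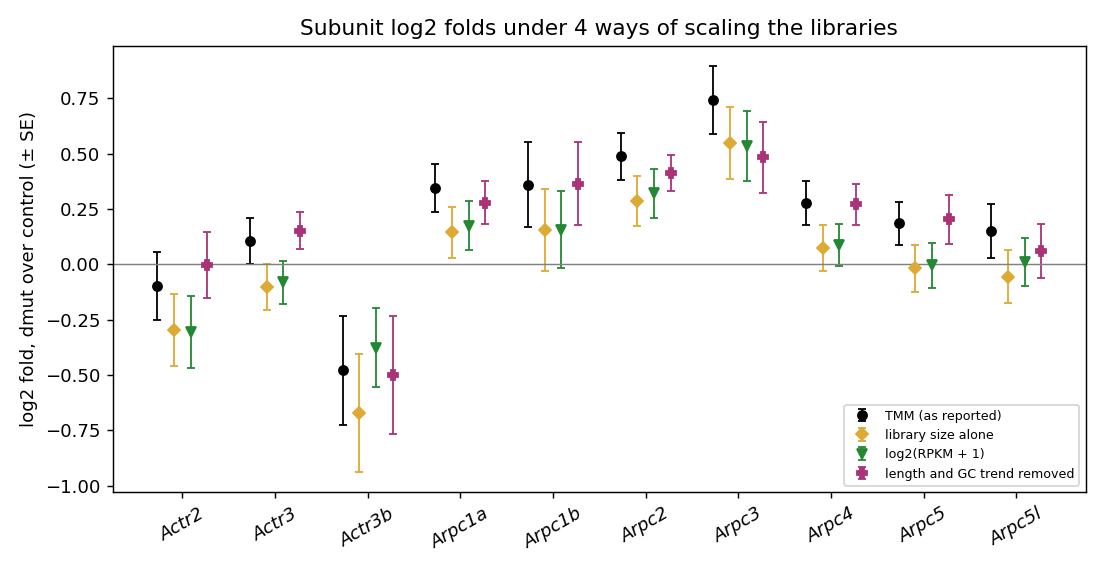
Log2 fold of dmut over control with its SE (vertical axis) for each subunit under 4 treatments of the data: TMM scaling, library size alone, log2(RPKM + 1), and removal of each library's trend on transcript length and GC content. Arpc2 and Arpc3 are above 0 and Actr3b below 0 under all 4. Actr2, Actr3, Arpc1b, Arpc4, Arpc5 and Arpc5l lie within about 1 SE of 0 under at least 1 of them.

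Folds were also set beside transcript length. Arpc3, with the highest fold, has the shortest principal transcript, 899 bases, and Actr2, with a fold below 0, the longest, 3631 bases. Others did not follow that order: Arpc1b, of 3105 bases, had the third highest fold, and Actr3b, with the lowest fold, has 1712 bases. Over the 10 subunits the Spearman correlation of log2 fold with that length was -0.44, and over 14937 genes it was -0.30. These are descriptions across genes that share the same 6 libraries. After removal of each library's trend on transcript length and GC content, fitted without the 10, the log2 fold was 0.48 for Arpc3 (edgeR adjusted p = 0.155), 0.41 for Arpc2 (0.0747), 0.28 for Arpc1a, 0.27 for Arpc4, -0.50 for Actr3b and -0.0046 for Actr2. The correlation with length was then -0.37 over the 10 and -0.11 over all genes with a length. Each library's trend was centred on its median gene there. In the form tried first, without that centring, the median of all genes stood at 0.12, Arpc2 and Arpc4 were called (edgeR adjusted p = 0.0429 and 0.0474) and Arpc3 was not (0.0652). In that form 3.05% of all tested genes were called. The centred form was chosen after those values were seen.

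Levels between subunits were compared per length, by RPKM. In control the order was Actr3 (99.0 ± 4.27), Arpc2 (73.9 ± 2.49), Arpc5 (63.8 ± 3.17), Arpc4 (45.5 ± 3.78), Arpc1a (43.9 ± 4.11), Actr2 (37.2 ± 3.49), Arpc3 (28.7 ± 3.90), Arpc5l (6.44 ± 0.727), Arpc1b (2.57 ± 0.566) and Actr3b (2.33 ± 0.154; RPKM, SD, n = 3). Neighbours in that order whose control libraries overlapped were Arpc4 with Arpc1a, and Arpc1b with Actr3b. In dmut the means were 93.6 ± 7.82 for Actr3 and 93.0 ± 11.1 for Arpc2, with overlapping libraries, and 30.3 ± 6.17 for Actr2 and 42.3 ± 7.88 for Arpc3, also overlapping. Within each library, Arpc3 stood below Actr2 in all 3 controls (26.2, 26.7 and 33.2 against 33.2, 38.8 and 39.6 RPKM) and above it in all 3 dmut libraries (42.3, 34.4 and 50.2 against 23.2, 33.0 and 34.6 RPKM). The share of the summed RPKM of all 10 was 7.11% ± 0.834 in control and 9.75% ± 1.43 in dmut for Arpc3, 18.3% ± 0.307 and 21.5% ± 2.38 for Arpc2, 9.22% ± 0.849 and 6.99% ± 1.21 for Actr2, and 24.6% ± 1.55 and 21.7% ± 2.34 for Actr3.

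The summed RPKM of the 10 was 403, 396 and 412 in control replicates 1, 2 and 3 and 415, 422 and 459 in dmut. The groups did not overlap, but the lowest dmut library was close to the highest control library. Divided by the TMM factor of each library, the sums were 371, 366 and 391 in control and 457, 464 and 469 in dmut. RPKM by its usual definition counts exon reads. The ratio of total gene reads, scaled to library size, to RPKM came to 6.25 to 7.04 kilobases for Arpc1b against a principal transcript of 3.11 kilobases. For Arpc5l it came to 4.48 to 4.76 against 1.34 kilobases. The exon length used for RPKM and reads outside exons cannot be told apart in that ratio, so the per-length levels are approximate. For Arpc3 the ratio was 2.60 to 2.64 kilobases against a transcript of 0.899 kilobases, which bears on its level beside Actr2 (5.27 to 5.30 against 3.63 kilobases). For Actr3b it varied from 1.86 to 2.32 kilobases between libraries.

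**Figure D3:**
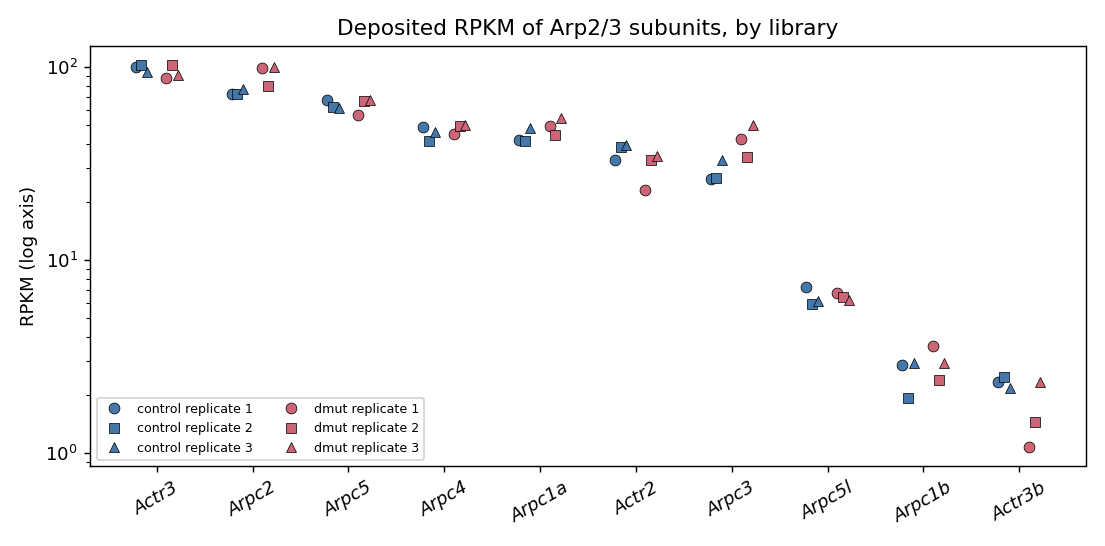
Deposited RPKM on a log axis (vertical) for the 10 subunits in order of their control mean, with a point per control (blue) and dmut (red) library. Arpc5l, Arpc1b and Actr3b lie at or below 7.27 RPKM in every library and the other subunits at or above 23.2.

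Each of the 3 paralog pairs was dominated by a single gene in both groups. Actr3b made up 2.28%, 2.36% and 2.25% of the summed RPKM of Actr3 and Actr3b in control and 1.21%, 1.39% and 2.50% in dmut. Replicates 1 and 2 of dmut lay below control and replicate 3 above it, so the groups overlapped. The log2 ratio of Actr3b to Actr3 differed by -0.52 (exact two-sided permutation test, p = 0.4, 0.9 adjusted over the 3 pairs, smallest possible p = 0.1). From total gene reads the difference was -0.62 and from unique gene reads -0.57, and there the groups did not overlap (exact permutation p = 0.1 for each, the smallest possible, 0.3 adjusted over the 3 pairs). Arpc1b made up 4.44% to 6.41% of its pair in control and 5.06% to 6.74% in dmut, a difference in log2 ratio of 0.04 (exact permutation p = 0.9, adjusted p = 0.9). Arpc5l made up 8.69% to 9.73% and 8.46% to 10.6% of its pair, a difference of 0.02 (exact permutation p = 0.9, adjusted p = 0.9). In the latter 2 pairs both paralogs had folds of like size, 0.34 and 0.36 for the ARPC1 genes and 0.18 and 0.15 for the ARPC5 genes. With 3 libraries a group, the exact permutation test cannot give a p under 0.05.

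**Figure D4:**
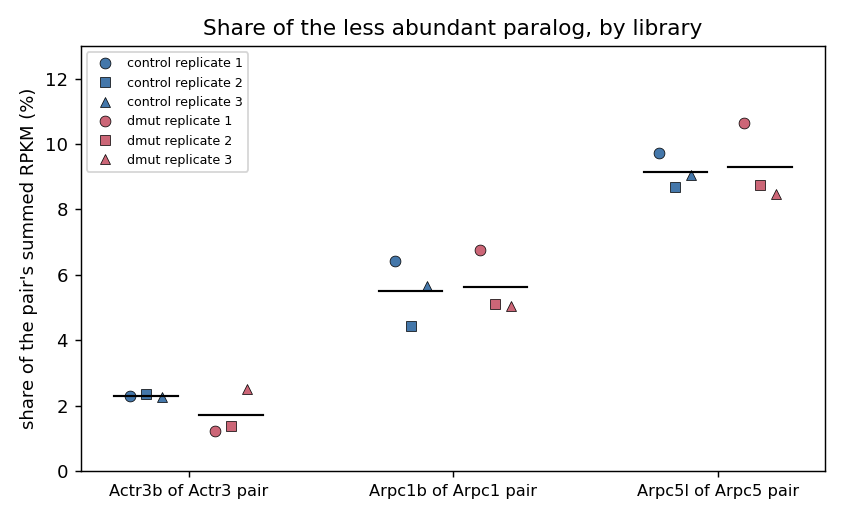
Share of the less abundant paralog in the summed RPKM of its pair (vertical axis, percent), for Actr3b, Arpc1b and Arpc5l, with a point per control (blue) and dmut (red) library and lines at the group means. The Actr3b share is 2.25% to 2.36% in control and spreads from 1.21% to 2.50% in dmut, and the other shares overlap between groups.

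The genes around the complex were counted in the same test, and none of the listed activators, inhibitors, other nucleators, other actin-related proteins and actins passed. Of 14 activators and their partners, such as N-WASP (Wasl), the WAVE proteins (Wasf1 to Wasf3) and cortactin (Cttn), 8 had a positive fold and the median was 0.03. The smallest unadjusted p were those of Washc1, listed as Wash, a subunit of an endosomal activator (0.35 ± 0.14 SE, edgeR adjusted p = 0.197), and of Cttn, which stabilises branches (0.17, adjusted p = 0.347). Of 10 inhibitors and debranching factors, 6 were positive with a median of 0.11. Among them, Coro1b and Coro1c, coronins that act on branches, stood at 0.30 ± 0.09 and 0.32 ± 0.10 (SE; edgeR adjusted p = 0.116 and 0.127). Of these 10, DESeq2 called 2, Coro1b and Coro1c (adjusted p = 0.0119 and 0.00317), against 10.6% of genes with an adjusted p in either direction. The count by limma-voom was 0, against 0.796% of all tested genes.

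Nucleators and elongators outside Arp2/3 numbered 20 tested, 5 of them positive, with a median of -0.10. Those of smallest p were Fhod1, a formin (-0.87, edgeR adjusted p = 0.110), and Evl, an elongation factor of the Ena/VASP family (0.45, adjusted p = 0.117). Of the 8 actin-related proteins outside the complex, 4 were positive with a median of 0.05. Actr10 (0.37 ± 0.10 SE, adjusted p = 0.0971) and Actr1a (0.28 ± 0.09, adjusted p = 0.132), both of dynactin, had the smallest p. The actins, substrate of the complex, had folds of -0.11 ± 0.21 for Actb and 0.03 ± 0.13 for Actg1 (SE; edgeR adjusted p = 0.820 and 0.936). At an unadjusted p under 0.05 by edgeR there were 1 activator, 2 inhibitors, 2 nucleators, 2 actin-related proteins and 0 actins, in either direction, against 21.3% of all tested genes. With library size alone the list medians were -0.17, -0.09, -0.30, -0.15 and -0.24, beside -0.23 for all genes and 0.027 for the 10 subunits. DESeq2 called 0 activators, 1 nucleator, 2 actin-related proteins and 0 actins, against 10.6% of genes with an adjusted p in either direction, and limma-voom called 0 in each list.

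In the authors' deposited table, the fold was 1.64 for Arpc3 (adjusted p = 0.290) and 1.41 for Arpc2 (adjusted p = 0.504). The authors' deposited table gave the other 8 subunits an adjusted p of 1.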

How the data were processed

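Polyadenylated RNA was isolated and libraries were built with the Ion Total RNA-seq kit, per the labels' protocols. Genome builds GRCm38 and mm10 are named in the submitters' processing notes. For the aligner, the counter and the use of strand, the labels give nothing. The deposited total and unique gene read counts are whole numbers per gene and library, and the smallest count above 0 is 10. The RPKM values, the normalized values (a signal, not used here) and the p-values with signed fold changes were computed by the authors, with formulas that the labels leave out.

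Total counts were tested with edgeR 4.0.16 (TMM scaling, filterByExpr, quasi-likelihood test, Benjamini-Hochberg adjustment over 15960 genes, threshold 0.05). Alternatives used DESeq2 1.42.0 and limma 3.58.1, with pseudocounts of 1 and 0.1 on RPKM. A log2 fold on log2(RPKM + pseudocount) understates the change of low genes. The SE is the log2 fold over the square root of F. Paralog ratios were compared by an exact permutation test in SciPy 1.17.1. Gene positions and lengths are from GENCODE on GRCm38, and 93.6% of tested genes had a length.

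Named genes were the 10 subunits, Rac1 and Rac3, Actb and Actg1, the called members of each list or else the 2 of smallest p, and the 5 genes with the closest profile. Genes that overlap or copy a subunit, cell type markers and examples of list members are named besides, outside that rule, the markers called by DESeq2 after their values were seen. The subunits and lists were chosen with earlier results of these data known. Between 82.6% and 86.6% of reads per library were unique.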

Additional observations from a re-analysis of the deposited data

How the results depend on the processing

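With TMM scaling and edgeR 0 subunits were called, against 0.482% of all tested genes. The count was 1 with at least 10 reads in all libraries (Arpc3), against 2.84% of genes tested there. It was 4 with DESeq2 (Arpc1a, Arpc2, Arpc3 and Arpc4), against 10.6% of genes with an adjusted p. With a library left out it was 0 to 2 (Arpc2 and Arpc3 without dmut replicate 2, against 3.54%). It was 2 (Arpc2 and Arpc4) with the length and GC trend removed but not centred, against 3.05%. That form was tried first and replaced after its results were seen. The median log2 fold of 0.23 moved to 0.027 with library size alone, 0.29 with the date block, 0.049 and 0.050 on log2(RPKM + 1) and log2(RPKM + 0.1), 0.39 with the uncentred trend, and 0.18 to 0.28 with a library left out. The log2 ratio of summed RPKM was 0.099, 0.30 after TMM scaling, and 0.053 to 0.13 with a library left out. Actr2 ran from -0.19 to 0.044 with a library left out, above 0 without dmut replicate 1, and was 0.14 with the uncentred trend. With library size alone Actr3 was -0.10, Arpc5 -0.018 and Arpc5l -0.055. On the 2 RPKM scales Actr3 was -0.082 and -0.082, and Arpc5 -0.0034 and -0.0035. The ratio of Arpc5l to Arpc5 was -0.027 from total and -0.026 from unique reads, and -0.097 to 0.087 with a library left out. Arpc1b to Arpc1a ran from -0.12 to 0.16 and Actr3b to Actr3 from -0.84 to -0.31, with -0.62 from total and -0.57 from unique reads. The cause of these moves was not tested.

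Same-numbered libraries of replicates 1, 2 and 3 had correlations of 0.110, 0.123 and 0.015 of their deviations from the group means. Differently numbered libraries had -0.136 to 0.016, below the values of replicates 1 and 2. The numbers were not taken to pair the libraries in the main test, and these correlations do not settle whether they do. With the replicate block, 1 subunit (Arpc3, edgeR adjusted p = 0.0466) and 227 of all genes (1.42%) were called, against 77 without it. The differences in log2 paralog ratio with the block were -0.52, 0.04 and 0.02. They equal those without it by arithmetic, since each block holds a single library of each group. The exact permutation p with the block was 0.5, 0.75 and 0.75, where 0.25 is the smallest possible. Over all genes, calls numbered 780 with library size alone, 401 with at least 10 reads in all libraries, 1799 with DESeq2, 127 with limma-voom, 49 and 76 on the 2 RPKM scales, 487 with the uncentred trend, 0 with the date block (2033 at an unadjusted p under 0.05), and 2 to 585 with a library left out, the most without dmut replicate 2. Actr3b had only 69 to 177 reads per library, which limits the precision of its ratio.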

Other observations

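Profiles of log2 CPM were centred on each gene's mean over the 6 libraries. The genes whose profile came closest to the mean profile of the 10 subunits were Eif1ad, Pink1, Cpsf3l, Blmh and Aamp. Their root mean square differences from it were 0.0256, 0.0274, 0.0311, 0.0334 and 0.0348 on the log2 scale, among 12024 genes ranked. The subunits themselves lay 0.0750 (Arpc4) to 0.380 (Actr3b) from it. Each named gene was thus closer to the mean profile than any subunit, and the mean profile is not that of a single subunit. The log2 folds of the named genes ranged from 0.19 to 0.24, and none was called (edgeR adjusted p from 0.184 to 0.288).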
